A study of Homo sapiens with 12 samples.

Results

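The 6 genes described are SNAI1 and ZEB1, which encode repressors of the epithelial programme, and SPP1, LOXL2, FN1 and VIM, which encode osteopontin, a lysyl oxidase, fibronectin and vimentin. They are 6 of the 770 genes counted by the nCounter PanCancer Progression panel, a hybridisation assay that counts barcoded probes on single transcripts without amplification. They were chosen by their group means and fold changes in the tables used here, so their levels and ratios are given as a description and no test of them is offered as support. The panel was run on HCT-116, an established human colorectal carcinoma line with epithelial morphology. The 12 samples form 4 groups of 3, namely control, heteronemin (a sesterterpenoid of marine sponges), tetrac (tetraiodothyroacetic acid, an analogue of thyroid hormone) and both compounds together, with treatment for 24 h. All groups are 1 cell line, and the labels state no dose, no vehicle in the control and no separate cultures behind the samples of a group.

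Epithelial-mesenchymal transition (EMT) is the shift of epithelial cells towards a motile, fibroblast-like state. Snail, encoded by SNAI1, and ZEB1 are zinc finger factors that bind E-box sequences and repress E-cadherin, CDH1, and other junction genes. Vimentin is the intermediate filament of mesenchymal cells, and fibronectin is a matrix glycoprotein that such cells lay down. Osteopontin is a secreted phosphoprotein that binds integrins and CD44, and LOXL2 is a secreted copper enzyme that crosslinks collagen and has been linked to the stability of Snail. In colorectal carcinoma these genes are studied as marks of invasion and of the tumour stroma.

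Upstream sequences were read for members with an entry in the RefSeq promoter table of build GRCh38.p14, which held 4 of the 6 members (SPP1, ZEB1, FN1 and VIM). They are shown because an E-box is the site that the products of SNAI1 and ZEB1 bind. SPP1 and ZEB1 were higher under heteronemin while FN1 and VIM were not, but SNAI1 and LOXL2, also higher, had no entry. A link between the motifs and these levels was not tested. Each run gives the 250 bases before a transcription start, 5′ to 3′ on the gene's own strand. Capitals mark matches, on either strand, to an E-box (CAGGTG), an AP-1 element (TGANTCA), a cAMP response element (TGACGTCA) or a TATA box (TATAAA); these motifs do not overlap in the windows shown. The SPP1 window lies at chr4:87975464-87975713 on the plus strand, the ZEB1 window at chr10:31318966-31319215 on the plus strand, the FN1 window at chr2:215436069-215436318 on the minus strand and the VIM window at chr10:17227991-17228240 on the plus strand.
SPP1: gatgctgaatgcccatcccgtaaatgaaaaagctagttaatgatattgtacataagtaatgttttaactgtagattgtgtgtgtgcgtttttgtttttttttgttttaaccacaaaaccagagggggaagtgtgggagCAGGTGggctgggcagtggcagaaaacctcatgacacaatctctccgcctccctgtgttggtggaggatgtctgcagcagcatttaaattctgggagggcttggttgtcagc
ZEB1: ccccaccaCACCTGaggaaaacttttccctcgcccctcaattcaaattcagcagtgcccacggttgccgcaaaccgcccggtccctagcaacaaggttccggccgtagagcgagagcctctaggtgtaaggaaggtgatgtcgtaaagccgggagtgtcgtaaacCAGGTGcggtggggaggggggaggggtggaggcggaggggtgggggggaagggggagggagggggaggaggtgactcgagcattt
FN1: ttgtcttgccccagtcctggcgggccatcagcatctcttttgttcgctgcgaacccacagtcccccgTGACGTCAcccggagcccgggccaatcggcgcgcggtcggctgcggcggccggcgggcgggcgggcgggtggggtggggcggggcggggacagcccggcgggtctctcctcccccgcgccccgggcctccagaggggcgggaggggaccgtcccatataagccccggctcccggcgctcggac
VIM: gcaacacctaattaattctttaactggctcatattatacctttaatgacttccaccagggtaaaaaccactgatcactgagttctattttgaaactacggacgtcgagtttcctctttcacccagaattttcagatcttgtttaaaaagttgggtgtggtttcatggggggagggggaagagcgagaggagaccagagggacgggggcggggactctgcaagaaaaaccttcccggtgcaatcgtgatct

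The SPP1 window held 1 E-box, whose first base lies 112 bases before the start. ZEB1 has 7 windows in the table, for as many annotated starts, and 2 of them held an E-box. The window shown, chosen because it held the most matches, had one at 242 and another at 85 bases before its start, and the window ending at position 31318416 had one at 57 bases. The other 5 held none of the 4 motifs. The FN1 window held a cAMP response element 183 bases before the start, and the letters searched were not in the VIM window. Over 35116 upstream windows of 250 bases in the same table, 17.5% held the E-box, 6.57% the AP-1 element, 1.65% the cAMP response element and 10.7% the TATA box. These shares are per window, so they do not apply to a gene with several windows. A match describes letters in a window and is not evidence that a factor was bound there in these cells.

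The tables give 1 mean of normalized counts per group, and no value per sample, so no SD, interval or raw depth can be given and overlap between samples cannot be judged. The lowest mean of any gene in any group was 33, the floor, and a gene at 33 has only an upper bound on its level. In control 279 of 770 genes were at the floor, against 70 under heteronemin, 61 under tetrac and 90 under the combination. Genes low in control were higher after treatment as a body: of 108 genes above the floor but under 60 in control, 98 had a ratio above 1 under heteronemin, with a median log2 ratio of 0.86, and of 268 genes at 200 or more in control, 224 had a ratio below 1, with a median of -0.27. Of the 6 members, 5, all but SNAI1, were under 60 in control. In bulk RNA, fewer cells with a transcript and less transcript per cell cannot be told apart.

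**Figure D1:**
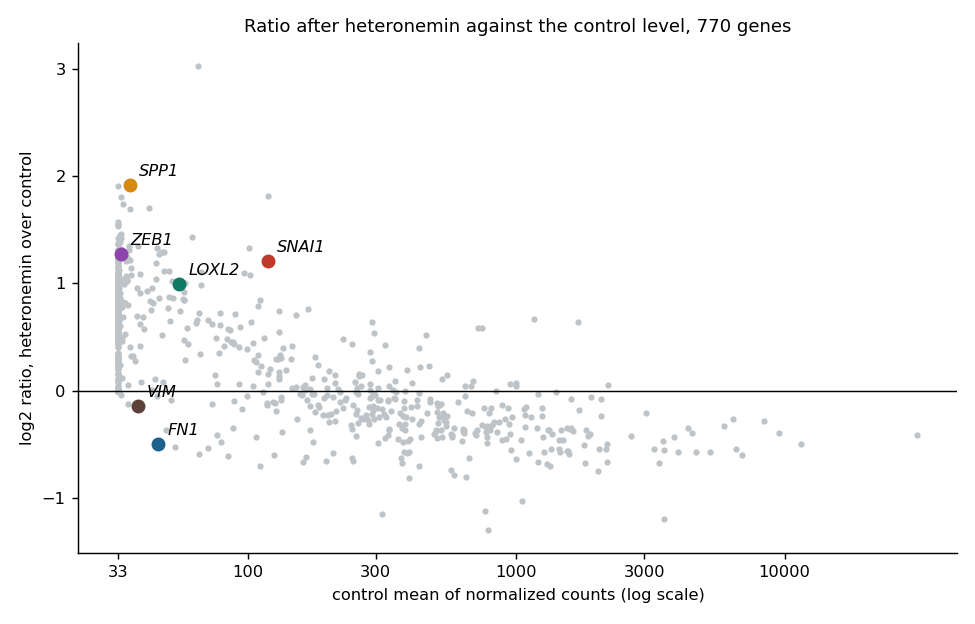
Each point is 1 of the 770 genes, placed by its control mean of normalized counts (log scale, horizontal) and its log2 ratio of heteronemin over control (vertical), with the 6 members named. Ratios run higher at low control levels; SPP1 at 1.91 lies near the top of the genes of its control level, and FN1 at -0.49 and VIM at -0.14 lie below 0.

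SNAI1, the Snail gene, was above the floor by 85.96 counts or more in every group. Its mean was 118.96 in control, 124.45 under tetrac, 275.23 under heteronemin and 348.56 under the combination. Control and tetrac were thus close to each other, and both groups that received heteronemin were higher. In the authors' deposited table the gene rose 2.31-fold under heteronemin and 2.93-fold under the combination, each with p printed as 0, that is, below 0.005. Its tetrac ratio in the authors' deposited table was 1.05, at p = 0.78. By size of ratio SNAI1 ranked 54 of 770 under heteronemin and 9 of 770 under the combination. Its log2 ratio of 1.21 under heteronemin was 1.35 after subtraction of the median over the 51 panel genes of most similar mean level, and that of 1.55 under the combination was 1.64.

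ZEB1 started at the edge of detection. Its control mean was 33.89, which is 0.89 above the floor, followed by 45.03 under tetrac, 69.22 under the combination and 82.12 under heteronemin. Both groups with heteronemin were above the other two, in the reverse order of SNAI1. The authors' deposited table gives a 2.42-fold rise under heteronemin and a 2.04-fold rise under the combination, each with p = 0.04, and a ratio of 1.33 with p = 0.46 under tetrac. After the median of genes of like level was taken off, the log2 ratio of ZEB1 was 0.03 in place of 1.28 under heteronemin and 0.42 in place of 1.03 under the combination. Its rise under heteronemin thus had the size of the median for genes of its level, a level to which the treated means themselves contribute.

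Other factors of the Snail and ZEB families, and the TWIST factors, had lower means than SNAI1 in every group. SNAI2, which encodes Slug, was at the floor in control, heteronemin and tetrac and at 36.57 under the combination. SNAI3 had means of 50.85 in control, 92.92 under heteronemin, 59.81 under tetrac and 60.43 under the combination, with p = 0.16, 0.75 and 0.66 for the treated groups in the authors' deposited table. ZEB2 was at the floor in all 4 groups. TWIST1, a basic helix-loop-helix inducer of EMT, was at the floor in control and at 60.88 under heteronemin (p = 0.06 in the authors' deposited table), and its relative TWIST2 went from the floor to 64.51 with p = 0.19. Of these 5 factors none was called in any comparison at an unadjusted p under 0.05 in the authors' deposited tables. ZEB2 had no p-value in any comparison, and SNAI2 had one only under the combination. Over all tested genes 11.2%, 0.28% and 8.16% were called higher under heteronemin, tetrac and the combination, and 15.9%, 0.98% and 14.1% lower. For so few genes the lack of a call thus says little.

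**Figure D2:**
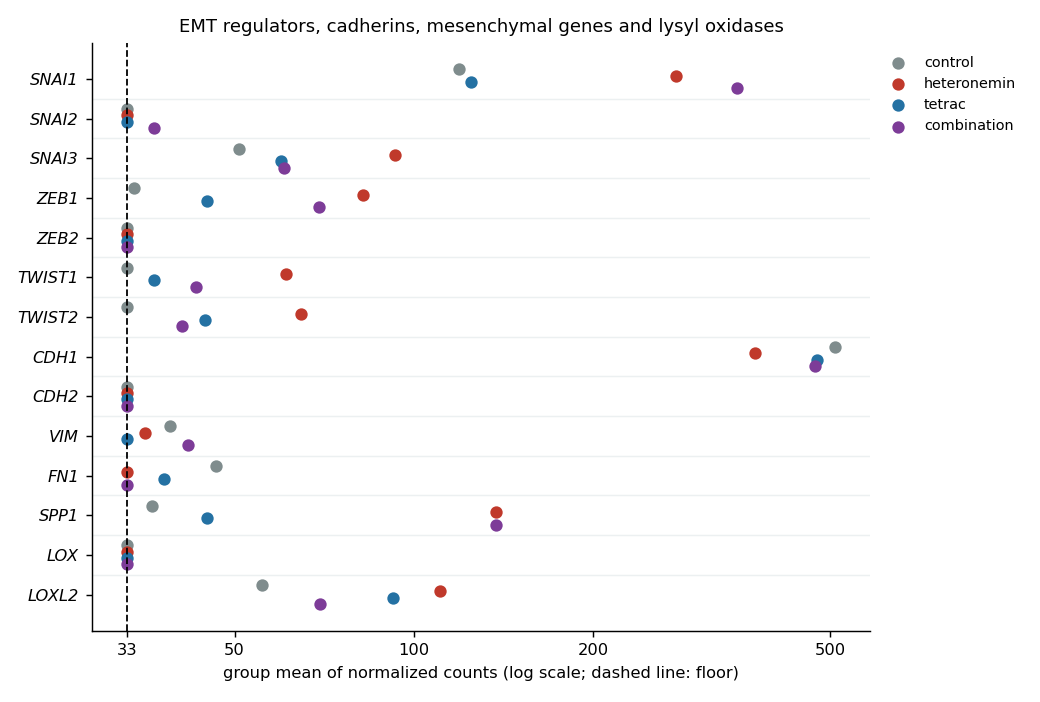
Group means of normalized counts (log scale, horizontal) for EMT regulators, both cadherins, mesenchymal genes and lysyl oxidases, with 1 point per group and the floor of 33 as a dashed line; no error is available. SNAI1 is the only factor shown whose 4 means all exceed 100, and CDH2, ZEB2 and LOX are at the floor in every group.

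SPP1, the osteopontin gene, was higher in both groups with heteronemin, at nearly the same mean. Its mean was 36.35 in control and 44.88 under tetrac, against 137.05 under heteronemin and 137.22 under the combination. Under tetrac it stayed near the floor, and adding tetrac to heteronemin left its mean almost as it was, at a log2 ratio of 0.0018. The gene rose 3.77-fold under heteronemin and 3.78-fold under the combination, each with p printed as 0 by the authors' deposited tables, and its ratio under tetrac was 1.23 with p = 0.57. SPP1 had the rank 2 of 770 by ratio under heteronemin and 3 of 770 under the combination. After the median of genes of like level was taken off, 1.29 of the log2 ratio of 1.91 remained under heteronemin, and 1.58 of 1.92 under the combination.

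Of 8 measured receptors of osteopontin and fibronectin, 0 were called higher in any comparison at an unadjusted p under 0.05 in the authors' deposited tables. With 7 of them tested, beside 11.2%, 0.28% and 8.16% of all tested genes called higher under heteronemin, tetrac and the combination, a count of 0 says little. Under heteronemin 2 of the 7 were called lower, beside 15.9% of all tested genes. They were ITGB8, the integrin beta 8 chain (from 207.87 to 138.75), and ITGA5, the alpha 5 chain of the fibronectin receptor (from 279.87 to 231.53). The authors' deposited table prints p as 0 for the former and p = 0.02 for the latter. Under the combination 1 of the 7 was called lower, beside 14.1% of all tested genes. It was CD44, which went from 2183.3 to 1831.7 (p = 0.04 in the authors' deposited table). ITGB8, ITGA5 and CD44 are among the 268 genes at 200 or more in control. Of those 268, 100 were called lower under heteronemin and 81 under the combination, so these few calls say little. CD44 had a lower mean under heteronemin, 1550.1, and ITGB8 under the combination, 94.36, but both were printed at p = 0.05 in the authors' deposited tables and so were not called. ITGB1, the shared beta 1 chain, was not called, with means from 1967.5 to 2590 over the 4 groups, and ITGB6 was at the floor throughout.

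LOXL2 was the member with the highest ratio under tetrac and the one in which the combination departed most from the single treatments. Its mean was 55.58 in control, 69.47 under the combination, 92.32 under tetrac and 110.43 under heteronemin. Each compound alone thus gave a higher mean than both together. In the authors' deposited tables it rose 1.99-fold under heteronemin with p = 0.03, and was not called under tetrac (ratio 1.66, p = 0.08) or under the combination (ratio 1.25, p = 0.48). Under tetrac only 3 of 770 genes had a higher ratio. With the median of genes of like level taken off, its log2 ratio was 0.34 under heteronemin, 0.56 under tetrac and -0.0014 under the combination. LOX, the founding lysyl oxidase, was at the floor in all 4 groups.

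FN1 moved the other way. Its mean was 46.46 in control, 38.13 under tetrac and 33, the floor, under both heteronemin and the combination. In the authors' deposited tables it fell 1.41-fold in each of these, with p = 0.04, and was 1.22-fold lower under tetrac with p = 0.12. A fall that ends at the floor is a lower bound, and the whole distance available to FN1 was 13.46 counts. Few genes of its control level had ratios below 1 under heteronemin: 10 of the 108 genes above the floor and under 60 in control, FN1 and VIM among them. Under tetrac only 6 of 770 genes had a lower ratio than FN1.

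VIM stayed within 8.76 counts of the floor in all groups. Its mean was 39.03 in control, 35.43 under heteronemin, 33 under tetrac and 41.76 under the combination. None of the 3 comparisons was called in the authors' deposited tables, with p = 0.61, 0.39 and 0.75. The log2 ratio under heteronemin was -0.14, but 0.02 with each group scaled to the median of genes at a mean of 100 or more and 0.11 with scaling to the panel sum, so its direction depends on the scaling. At this distance from the floor a fall in vimentin transcript could not be resolved. A rise was not limited in that way. ZEB1 and SPP1, lower in control at 33.89 and 36.35, had means of 82.12 and 137.05 under heteronemin. No VIM mean exceeded 41.76, so no rise of that size was seen, and the absence of a smaller change is not shown.

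**Figure D3:**
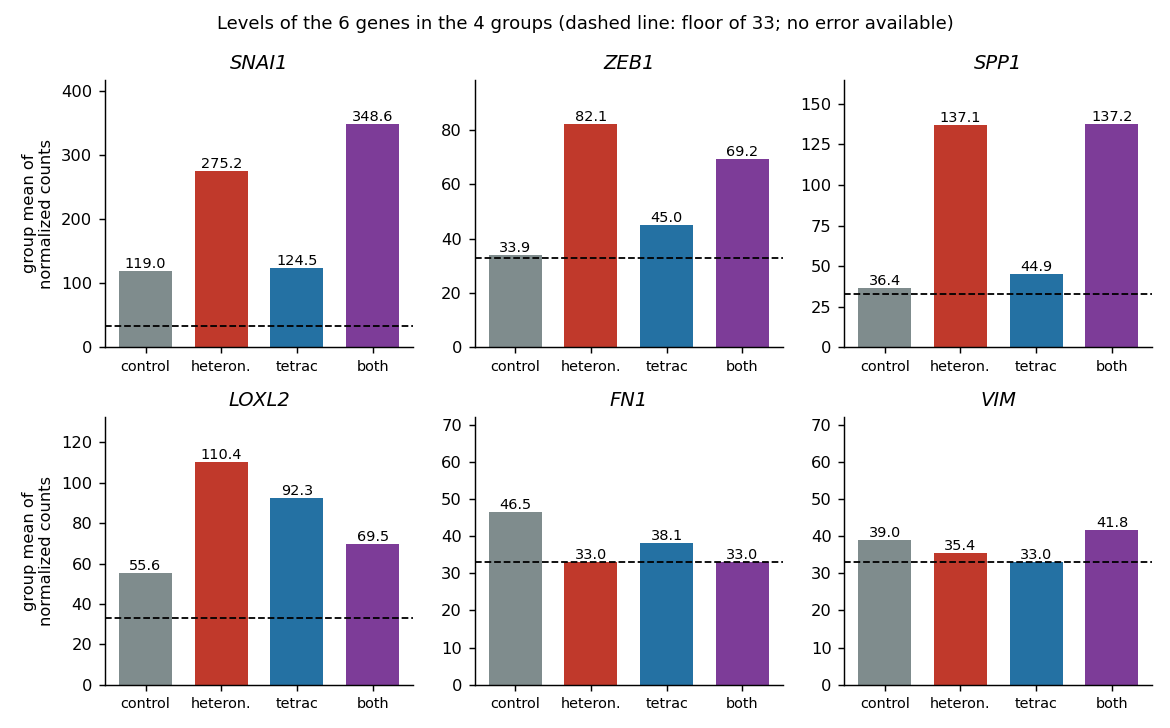
Group means of normalized counts (vertical, linear from 0) of each of the 6 genes in control, heteronemin, tetrac and both compounds, with the floor of 33 dashed; no error is available. SNAI1 and SPP1 are higher in both groups with heteronemin, LOXL2 is highest at 110.43 under heteronemin alone, and FN1 and VIM lie at or near the floor.

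By the authors' unadjusted p under 0.05, 4 of the 6 members were called higher under heteronemin (SNAI1, ZEB1, SPP1 and LOXL2), beside 11.2% of 704 tested genes, and 1 lower (FN1), beside 15.9%. Under tetrac 0 of 6 were called at that p, beside 0.28% of 714 tested genes called higher and 0.98% called lower. Under the combination 3 were called higher (SNAI1, ZEB1 and SPP1), beside 8.16% of 686 tested genes, and FN1 was called lower, beside 14.1%. Because these comparisons chose the members, nothing is read from the counts. After Benjamini-Hochberg adjustment over all tested genes of a table, SNAI1 and SPP1 passed on the printed p-values in both groups with heteronemin. With the largest p that rounds to the printed one, their adjusted p was 0.0859 under heteronemin and 0.0715 under the combination, so neither passed. ZEB1, LOXL2 and FN1 did not pass on the printed p-values either, at adjusted p of 0.147, 0.130 and 0.147 under heteronemin.

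**Figure D4:**
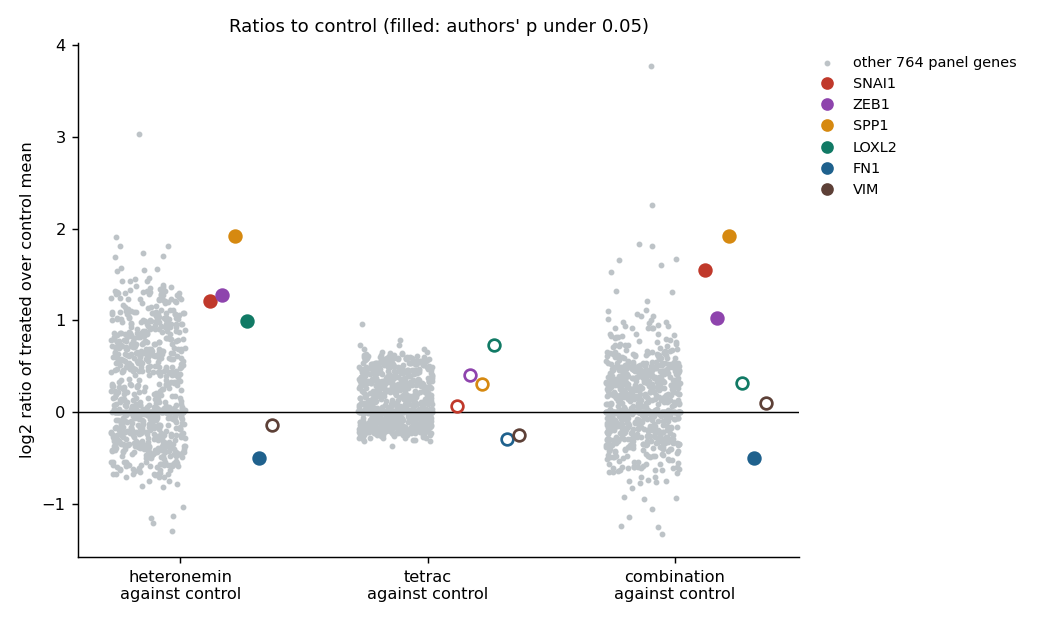
Log2 ratio of the treated over the control mean (vertical) in each comparison, with the other panel genes in grey and the 6 members in colour, filled where the authors' p was under 0.05. Under heteronemin 4 members are filled above 0 and FN1 below, under tetrac none is filled, and under the combination LOXL2 is open at 0.32.

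The treated groups were also set against each other, to ask what each compound added to the other. The tables hold no test for these contrasts, so the values are quotients of means. Between the combination and heteronemin 1 of 6 members differed 1.5-fold or more, beside 9.87% of 770 genes: LOXL2, 1.59-fold lower in the combination. It was 1 of 74 genes that were lower by that margin, against 2 that were higher. SNAI1 was 1.27-fold higher in the combination, the rank 17 of 770, in a comparison where 434 genes had a lower and 273 a higher combination mean. ZEB1 was 1.19-fold lower, a log2 ratio of -0.25 that turned to 0.35 once the level median was taken off.

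Between the combination and tetrac 3 of 6 members passed 1.5-fold, beside 6.49% of 770 genes, namely SPP1 (3.06-fold higher), SNAI1 (2.80-fold higher) and ZEB1 (1.54-fold higher). Between heteronemin and tetrac the same 3 passed, beside 16.2% of 770 genes, with SPP1 at 3.05-fold, SNAI1 at 2.21-fold and ZEB1 at 1.82-fold higher under heteronemin. LOXL2 was 1.20-fold higher under heteronemin than under tetrac, a log2 ratio of 0.26 that turned to -0.27 with the level median taken off. These contrasts share groups with those above and are not independent of them.

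If the ratios of the single treatments had multiplied, the combination mean of SNAI1 would have been 287.93 and that of SPP1 169.21, against the deposited 348.56 and 137.22. The same product was 109.11 for ZEB1, against 69.22, and 183.43 for LOXL2, against 69.47. On the log2 scale the departure was 0.28 for SNAI1, -0.30 for SPP1, -0.66 for ZEB1 and -1.40 for LOXL2, with a median of -0.08 over all 770 genes. With the level median taken off, the departure turned to 0.49 for ZEB1 and 0.16 for SPP1, and that of LOXL2 was -0.99. Scaling to the panel sum brought that of SNAI1 to 0.069. Only 7 genes lay lower than LOXL2. For FN1 and VIM the product, 27.08 and 29.96, lies under the floor and cannot be compared. No test of these departures was possible without values per sample.

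A wider list of EMT and mesenchymal genes gives the setting of the 6 members; 53 of 81 listed genes were measured. Under heteronemin 8 were called higher and 4 lower of 46 tested, beside 11.2% and 15.9% of all tested genes. These counts include the 5 called members; without them they were 4 and 3 of 40 tested. The median log2 ratio was 0.58 over the measured genes of the list, against 0.11 over all 770. Besides the members, the calls higher included COL1A1, a chain of fibrillar collagen I (from 67.15 to 144.34), COL5A2, a chain of collagen V (57.75 to 109), and THBS1, the matricellular thrombospondin (84.58 to 125.84). The calls lower were the EMT-linked factor SOX9 (1565.8 to 1061), the actin-binding caldesmon CALD1 (960.66 to 652.78) and the membrane protease MMP14 (125.27 to 82.41). Of the 53, 29 were at the floor in control and 6 in all 4 groups, so the median rests largely on genes near the floor.

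Under tetrac 0 of the 46 tested genes of the list were called higher and 1 lower, the urokinase gene PLAU (from 434.16 to 364.81), beside 0.28% and 0.98% of all tested genes. Under the combination 6 were called higher and 5 lower of 43 tested, beside 8.16% and 14.1% of all tested genes, or 3 and 4 of 37 without the members. The median log2 ratio was 0.30, against 0.09 over all genes. Besides the members these included THBS1 (129.09) and PLAUR, the urokinase receptor (from 104.34 to 149.73), higher, and SOX9 (1038.1), CALD1 (636), MMP14 (98.62) and the matrix protein FBLN1 (from 175.73 to 115.99), lower. The neuronal cadherin CDH2, the classical partner of the cadherin switch, was at the floor in all 4 groups.

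Of 18 measured epithelial genes on which EMT repressors are known to act, 17 were tested under heteronemin, and 3 were called higher and 3 lower. Over all tested genes the shares were 11.2% and 15.9%, so these few calls do not set the list apart. Its median log2 ratio was -0.05. CDH1 fell from 508.86 to 373.64 (p = 0.03 in the authors' deposited table). The desmosomal cadherin DSC2 fell from 779.45 to 578.62 and the membrane protease ST14 from 995.36 to 640.17. The claudin CLDN3 rose from 135.11 to 178.47, the epithelial factor OVOL2 from 57.77 to 103.98 and the polarity gene LLGL2 from 259.6 to 284.56. Under the combination, where the SNAI1 mean was highest, CDH1 was at 471.03 and was not called, at p = 0.37 in the authors' deposited table. The missing call does not show that CDH1 was unchanged, and a link between the SNAI1 and CDH1 levels was not tested. Also under the combination, of 17 tested, CLDN7 and LLGL2 were called higher and TJP3 and ST14 lower, beside 8.16% and 14.1% of all tested genes. Under tetrac the 1 call of 17 tested was OCLN, lower, beside 0.98%. These few calls do not set the list apart either. Genes at 200 or more in control were mostly lower under heteronemin, as given above, and CDH1, DSC2 and ST14 are among them.

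Of 20 measured inducers of EMT and their signal relays, 0 were called higher in any comparison, and 9 were called lower under heteronemin, 0 under tetrac and 8 under the combination. Over all tested genes 11.2%, 0.28% and 8.16% were called higher under heteronemin, tetrac and the combination, and 15.9%, 0.98% and 14.1% lower. Most of these inducers lie among the 268 genes at 200 or more in control. Of those 268, 11 were called higher under heteronemin, 0 under tetrac and 18 under the combination, so a count of 0 higher says little. Called lower were 100 of them under heteronemin and 81 under the combination. The largest falls were those of the Notch ligand JAG1 (from 782.33 to 318.72 under heteronemin and 331.56 under the combination) and the growth factor BMP4 (from 3561.4 to 1549.8 and 1423). The receptor TGFBR2 fell from 384.38 to 297.77 and 318.04. TGFB1, whose product is a well known inducer of EMT, fell under the combination from 283.33 to 216.72 with p = 0.02 and was not called under heteronemin, at 254.53 with p = 0.06, in the authors' deposited tables.

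The label of the line was checked against marker lists. The epithelial markers EPCAM, KRT19, CLDN4, CLDN7 and CDH1 had control means of 1814.2, 1603.6, 1000.6, 951.36 and 508.86. The other epithelial markers measured were low, with CLDN3 at 135.11, CEACAM6 at 48.13 and CEACAM5 at the floor. Of 10 measured markers of fibroblasts and stroma, 7 were at the floor in control, and COL1A1 at 67.15 was the highest. Their summed means were 365.24 in control, 632.43 under heteronemin, 447.51 under tetrac and 496.95 under the combination. Under heteronemin 10 of 10 were above control, but the 7 at the floor in control could not be below it. Of the 279 panel genes at the floor in control, 213 were above control under heteronemin and 0 below. Of the 10 tested, 1, COL1A1, was called higher, beside 11.2% of all tested genes. The 5 endothelial markers, 3 of them at the floor in control, summed to 167.97 in control and 268.06 under heteronemin. Of 4 tested, CD34 was called higher, beside the same 11.2%. The blood markers PTPRC and CD163 were at the floor in control and at 41.11 and 69.92 under heteronemin. These sums moved in the same direction as ZEB1, SPP1 and LOXL2, and their part in those results was not tested.

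The genes most like each member were sought by the Euclidean distance of the 3 log2 ratios to control, over the 714 other genes not at the floor in every group. The 3 ratios share the control mean, so the distance is a description. Nearest to SNAI1 were POPDC3 (distance 0.23; means of 100.85, 253.41, 120.31 and 306.59 in control, heteronemin, tetrac and combination), the haem oxygenase HMOX1 (0.26) and the laminin chain LAMA3 (0.38). Nearest to SPP1 were HKDC1 (0.31), NRP1 (0.40) and the AP-1 subunit JUN (0.42), whose means were 119.37, 418.94, 125.93 and 569.47 in the same order. Among the genes nearest to ZEB1 were CD34 (0.18) and CCDC80 (0.18), each under 36 in control like ZEB1 itself. Nearest to LOXL2 were CHI3L1 (0.17), LHFP (0.18) and SPDEF (0.18), which also had their highest means under heteronemin and were lower under the combination than under tetrac.

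The neighbours of FN1 and VIM were well above the floor, unlike the members themselves. FN1 was nearest to the dystroglycan gene DAG1 (0.084; control mean 530.44), CTNND1 (0.095) and CHD4 (0.097), and VIM to NOL7 (0.084; control mean 1251.1), CLIC4 (0.088) and the keratin gene KRT19 (0.097).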

How the data were processed

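RNA of 12 HCT-116 samples, 3 in each of 4 groups, was counted with the nCounter panel of 740 endogenous and 30 housekeeping genes. Per the series' design text, the counts were normalized in nSolver 4.0. The authors deposited a normalized signal, the mean of each group, in 3 tables; they also deposited a score, the signed fold change against control, and a p-value to 2 decimals that is empty where both means are at the floor. The score matched the quotient of the means within 0.00511. How the p-value was computed, whether the means are arithmetic and where the floor comes from are points not given in the sources used here. The p-values reflect only the spread between samples that may be technical.

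Log2 ratios of deposited means were computed with no pseudocount. A gene was called at the authors' unadjusted p under 0.05, with Benjamini-Hochberg adjustment over all tested genes as an alternative. The code that counts calls was tested on simulated data, which does not bear on how the authors' p-values were made. The alternatives were stricter p-values, a 1.5-fold minimum, a mean level of 100 or more, 3 rescalings, 50 added to each mean, and subtraction of the median over the 51 genes of most similar mean level. The members and lists were chosen with earlier results of these data known. Named genes were the members, their families, the 3 nearest patterns, and called genes of each list, at most 4 of the largest change; a few further called genes were named after their values were seen. Of 770 symbols, 755 were current in RefSeq and 15 older ones matched by accession; listed genes that were not measured are not analysed here, and some genes that the rules name are left out of the text. Python 3.11.15, numpy 2.4.6, pandas 2.3.3, scipy 1.17.1 and matplotlib 3.10.9 were used.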

Additional observations from a re-analysis of the deposited data

How the results depend on the processing

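No paired analysis was possible because the deposited columns are group means, and leaving out a replicate could not be done for the same reason. Of the EMT and mesenchymal list, 12 genes were called under heteronemin, 1 under tetrac and 11 under the combination. At p under 0.01 these counts were 2, 0 and 5. After Benjamini-Hochberg adjustment they were again 2, 0 and 5 on p-values as printed, and 0, 0 and 0 on the largest p that rounds to each. With a 1.5-fold minimum the counts were 7, 0 and 8, among genes with a mean of at least 100 they were 7, 1 and 8, and without the 6 members, a setting added after seeing the data, 7, 1 and 7. Restriction to genes above the floor in control, also added later, left 12, 1 and 11.

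Of 42 member values, all 42 moved by at most 0.2 on the log2 scale, a limit set here in the absence of a replicate spread, when groups were scaled to housekeeping genes or to the median of genes at 100 or more, 30 under scaling to the panel sum, 21 with 50 added to each mean and 19 with the level median taken off. The called ratios of members to control kept their direction in these settings, while values without a call turned sign in 13 cases, counting each value and setting. With the level median taken off, ZEB1 turned to -0.12 under tetrac, to 0.35 for the combination against heteronemin and to 0.49 for additivity, and SPP1 to 0.16 for additivity. LOXL2 turned to -0.0014 for the combination against control and -0.27 for heteronemin against tetrac, and VIM to -0.078 and -0.038 for the same contrasts. VIM under heteronemin turned to 0.02 and 0.11 when scaled to the median of genes at 100 or more and to the panel sum, and SPP1 in the combination against heteronemin, at 0.0018, turned to between -0.084 and -0.0054 under the 3 rescalings. Scaling to the panel sum raised the median of all genes by 0.25, 0.12 and 0.17 under heteronemin, tetrac and the combination, and scaling to the median of genes at 100 or more by 0.16, 0.11 and 0.12. Raw depth is unknown, and levels at the floor are bounds.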
